A study of Homo sapiens with 4 samples.

Results

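Early S phase Epi-like cells are the epiblast-like cells of human blastoids that carried the highest share of transcripts from 9 genes switched on as DNA replication starts. The cells came from H9 naive human embryonic stem cells, an established line, which were grown as blastoids (stem cell models of the blastocyst) for 120 h and collected at that time. The cultures received 4 mM dimethyl α-ketoglutarate (dm-αKG, a cell-permeable form of the tricarboxylic acid cycle intermediate αKG) for the first 40 h, or 0 mM. Per the study these 40 h were the aggregate stage, so cells were collected at 120 h, after the treatment period had ended. Blastoid cells of both doses were read by 10x single-cell RNA sequencing in 2 capture runs, each culture under its own antibody hashtag, which gave 4 arms (1 hashtagged culture in 1 run), 2 per dose. All arms share the cell line and the blastoid protocol, only single-cavity blastoids were picked by hand, and the runs were separate experiments per the study, which also states that TE cells (trophectoderm, the outer layer) were lost more often on dissociation. A cell was kept with 1 hashtag at 80% or more of its hashtag UMIs (unique molecular identifiers, which count transcripts), at most 15% mitochondrial UMIs, and at least 7000 UMIs in run 1 or 5000 in run 2. A kept cell was called Epi-like where its KRT8, KRT18, GATA3 and CLDN4 UMIs did not exceed its POU5F1, DPPA5, DPPA4, L1TD1 and TDGF1 UMIs. Members were then selected as the top 20% of each run by the share of UMIs from DUT, GINS2, DTL, UNG, CLSPN, E2F1, FAM111B, TK1 and WDR76. This gave 2090 early S cells (274 in run 1 and 1816 in run 2) of 10445 Epi-like cells, 10902 kept blastoid cells and 24564 barcodes in all.

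As background, a cell that commits to division phosphorylates the retinoblastoma protein, which frees E2F transcription factors to switch on genes for cyclin E, nucleotide synthesis, origin licensing and the replication fork. Loaded MCM helicases are then fired, CDC45 and the GINS complex join them, and chromatin is copied along with DNA. Mitotic genes follow later under the DREAM and B-MYB complexes, which read a promoter element called CHR. Pluripotent stem cells have a short G1 phase and spend much of their cycle in S phase.

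Early S and other Epi-like cells were sequenced to like depth. Early S cells had a median of 30969, 30172, 15544.5 and 15946 UMIs in run 1 at 4 mM, run 1 at 0 mM, run 2 at 4 mM and run 2 at 0 mM, and other Epi-like cells had 29828, 28793, 15494 and 15588.5 in the same order. Median mitochondrial shares lay between 4.09 and 4.21% in early S cells and between 3.99 and 4.55% in the others. The early S sums held 6775153, 1780254, 17654393 and 12313498 UMIs, so the 0 mM arm of run 1, with 61 early S cells, was the least precise. The barcode lists of the runs shared 28 sequences, 5 of them among kept cells. No doublet caller was run beyond the hashtag rule, so doublets within an arm remained. Among early S cells 0 to 2.85% had over 2 times the median UMIs of their arm, against 1.64 to 5.95% of other Epi-like cells.

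The score had no gap at the threshold. In run 1 the last cell inside had 904 CPM (counts per 1000000 UMIs), from 23 of 25447 UMIs, and the next cell outside had 903, from 29 of 32115. In run 2 these cells had 848.92 and 848.896 CPM. The score of 119 Epi-like cells in run 1 and 781 in run 2 lay within 10% of the threshold, so the early S group is the upper range of a continuous score and not a separate type. Early S cells carried a median of 36 and 32 score UMIs in run 1 (4 and 0 mM) and 18 in both arms of run 2, against 12, 11 and 6 in other Epi-like cells. Of TE-like cells (trophectoderm-like, kept cells outside the Epi-like rule), 4 of 74 in run 1 (5.41%) and 38 of 383 in run 2 (9.92%) passed the same threshold.

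**Figure D1:**
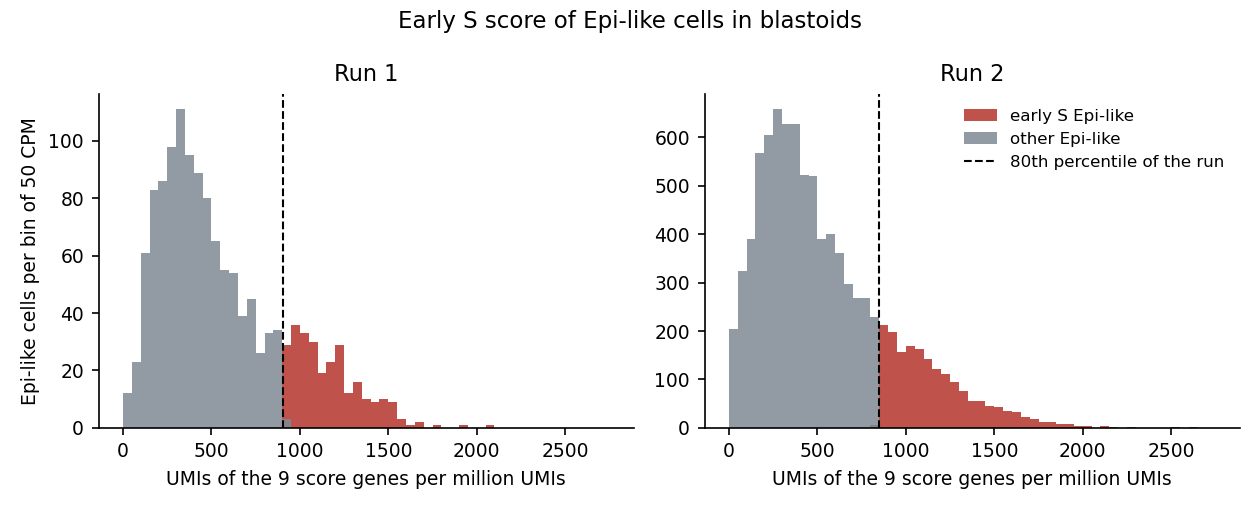
Number of Epi-like cells (vertical axis) by summed level of the 9 score genes (horizontal axis, CPM, bins of 50 CPM) in each run. Red bars are early S cells, grey bars other Epi-like cells, and the dashed line is the threshold, at 904 CPM in run 1 and 849 CPM in run 2. In run 1 the bin that holds the line had 29 early S and 3 other cells, and the bin below it had 34 cells. Neither run had a gap there.

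The 9 score genes are given as a description, since they chose the cells. DUT, which removes dUTP before it enters DNA, had 364, 407, 366 and 353 CPM in early S cells, against 128, 134, 118 and 117 CPM in other Epi-like cells, in the arm order used above. The sums are scaled with TMM factors (trimmed mean of M values) here and for single genes below. FAM111B, a protease gene of S phase, had the widest ratio, 13.5, 15.1, 13.4 and 16.3 CPM in early S cells against 1.23, 2.37, 2.06 and 1.92 CPM. On the log2 scale the 9 genes differed by 1.06 (the thymidine kinase TK1) to 2.95 (FAM111B). Between them stood WDR76 (2.13), the ubiquitin ligase adaptor DTL (1.51), the GINS subunit gene GINS2 (1.44), the checkpoint mediator CLSPN (1.31), the uracil glycosylase UNG (1.28) and the transcription factor E2F1 (1.23). DUT, UNG and CLSPN supplied most of the score by level.

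The start regions of these genes are shown because the group is defined by genes that replicate DNA, many of which carry E2F words. RefSeq windows (GRCh38.p14) of 300 bases, 250 before to 50 after the annotated start, were searched on both strands for the E2F words TTTGGCGC, TTTCCCGC, TTTCGCGC and TTTGCCGC, the CHR word TTTGAA and the CCAAT box CCAAT. An E2F word and its reverse complement can share bases, and no word lies inside another. Of 7 score genes with a window, 4 held an E2F word (GINS2, DTL, CLSPN and E2F1), against 558 of 10308 tested genes with a window (5.41%) and 3.33% of all 27305 windows. FAM111B and WDR76 had no window in the table. Each other gene has 1 window, at 1 annotated start. For some genes this start lies inside the annotated gene, as for UHRF1, which spans 4903080 to 4962154 on chromosome 19. The windows below were picked after the search, with E2F words in capitals in the first group and CHR words in capitals in the second, whose genes were lower in early S cells.
DTL, chr1:212035498-212035797, plus strand: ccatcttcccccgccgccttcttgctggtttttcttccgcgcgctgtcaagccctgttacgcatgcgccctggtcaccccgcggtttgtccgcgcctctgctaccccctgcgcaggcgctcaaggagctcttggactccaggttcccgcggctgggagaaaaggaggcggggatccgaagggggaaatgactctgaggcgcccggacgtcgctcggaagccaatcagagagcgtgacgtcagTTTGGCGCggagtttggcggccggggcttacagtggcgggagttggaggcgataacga
CLSPN, chr1:35769929-35770228, minus strand: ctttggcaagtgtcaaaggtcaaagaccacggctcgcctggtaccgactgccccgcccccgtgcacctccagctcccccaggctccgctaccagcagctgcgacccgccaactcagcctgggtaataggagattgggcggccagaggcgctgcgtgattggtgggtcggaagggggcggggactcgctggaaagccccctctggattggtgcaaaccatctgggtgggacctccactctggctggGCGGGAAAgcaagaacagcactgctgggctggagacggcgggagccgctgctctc
E2F1, chr20:33686336-33686635, minus strand: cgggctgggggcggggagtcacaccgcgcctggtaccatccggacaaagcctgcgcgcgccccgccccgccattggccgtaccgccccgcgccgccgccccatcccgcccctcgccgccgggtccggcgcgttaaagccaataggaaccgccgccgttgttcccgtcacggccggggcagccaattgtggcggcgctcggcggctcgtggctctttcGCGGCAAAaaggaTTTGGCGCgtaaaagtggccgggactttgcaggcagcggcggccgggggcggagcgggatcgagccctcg
CDC6, chr17:40287629-40287928, plus strand: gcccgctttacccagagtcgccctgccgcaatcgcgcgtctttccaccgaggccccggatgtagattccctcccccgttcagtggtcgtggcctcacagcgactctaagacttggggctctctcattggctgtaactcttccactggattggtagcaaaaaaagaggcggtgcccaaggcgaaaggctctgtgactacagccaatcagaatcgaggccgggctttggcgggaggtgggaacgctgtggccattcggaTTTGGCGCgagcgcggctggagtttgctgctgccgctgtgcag
UHRF1, chr19:4909251-4909550, plus strand: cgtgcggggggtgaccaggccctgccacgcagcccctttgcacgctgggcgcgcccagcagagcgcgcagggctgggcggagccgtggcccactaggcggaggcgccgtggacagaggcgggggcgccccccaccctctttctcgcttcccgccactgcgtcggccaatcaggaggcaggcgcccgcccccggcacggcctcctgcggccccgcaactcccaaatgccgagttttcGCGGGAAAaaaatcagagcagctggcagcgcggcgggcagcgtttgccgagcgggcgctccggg
PLK1, chr16:23678639-23678938, plus strand: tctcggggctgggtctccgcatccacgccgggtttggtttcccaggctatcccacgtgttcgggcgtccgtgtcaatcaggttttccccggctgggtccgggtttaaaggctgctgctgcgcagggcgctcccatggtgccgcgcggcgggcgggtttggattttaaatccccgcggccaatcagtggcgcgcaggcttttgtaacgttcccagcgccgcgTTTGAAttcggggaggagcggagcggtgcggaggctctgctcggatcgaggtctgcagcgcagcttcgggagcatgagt
HMMR, chr5:163460382-163460681, plus strand: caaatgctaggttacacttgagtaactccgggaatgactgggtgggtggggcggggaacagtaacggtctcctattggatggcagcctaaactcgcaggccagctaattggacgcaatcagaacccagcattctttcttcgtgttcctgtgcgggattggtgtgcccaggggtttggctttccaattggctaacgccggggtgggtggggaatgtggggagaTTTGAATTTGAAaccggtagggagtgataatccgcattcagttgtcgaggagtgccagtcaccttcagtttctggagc

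Counted from the annotated start, the E2F1 words began 33 and 20 bases before it, that of DTL 8, of CLSPN 5 and of UHRF1 14 bases before it, and that of CDC6 7 bases after it. The CHR word of PLK1 began 29 bases before the start, and HMMR had words 28 and 22 bases before it. Of the 12 genes named below for the largest difference towards early S cells, 10 had a window and 5 of these held an E2F word, with none holding CHR. Of the 12 at the lower end, 9 had a window, 7 held CHR and 0 held an E2F word. Over the tested genes with a window, 968 of 10308 held CHR (9.39%) and 36.9% the CCAAT box. Among 1651 windows of genes higher in early S cells 9.57% held an E2F word, among 1814 of genes lower 4.91%, and among 6843 of genes that did not pass 4.54%. The windows of the higher genes also had a higher median GC content, 67.3% against 64.3% and 65.3%, whose part in these shares was not tested. A match is a description of the letters and not a bound site.

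The label was set beside genes the rule did not use. Counts were summed per arm over early S cells and over other Epi-like cells, and the 8 sums were compared with edgeR's quasi-likelihood test with the arm in the model. The other genes were read in the same cells, so the test asks whether they moved with the score in the 4 arms. All 7 early S genes named for this comparison were higher in early S cells in 4 of 4 arms. They are replication genes like those of the score, so a shared direction was likely beforehand and is no independent support for the label. Such genes are switched on when a cell commits to division, so late G1 and early S cells cannot be told apart by them. The helicase subunit MCM6 had 113, 117, 111 and 117 CPM in early S cells against 59.2, 64.4, 59.3 and 61.3 CPM (log2 0.92 ± 0.032 SE, n = 4 arms, edgeR adjusted p = 2.1e-37). PCNA, the sliding clamp of the polymerases, had 233, 226, 235 and 224 CPM against 130, 144, 141 and 140 CPM (log2 0.73 ± 0.027). In neither gene did the 4 early S sums overlap the 4 others. Cyclin E2 (CCNE2) differed by 2.28 and MCM5, MCM2, CDC6 and SLBP by 0.64, 0.41, 1.21 and 1.15 on the log2 scale. The 5 G2/M markers were all lower, from MKI67 (-0.37) to PLK1 (-1.76).

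Markers of the other lineages were low in early S cells. The 20 trophectoderm markers outside the rule summed to 73.7 to 87.1 CPM in early S cells and 68.4 to 91.4 CPM in other Epi-like cells, against 1982 to 5246 CPM in TE-like cells. Of 15 tested, 2 were higher in early S cells, by at most 0.64 on the log2 scale. A further 3 were lower, among them GATA2 and KRT19 (KRT19 higher in 2 of 4 arms). Of all genes tested below, 15.1% were higher and 16.7% lower. GATA3, a rule gene that defines trophectoderm, was at 0 in the 0 mM arm of run 1 and at 0.553 to 0.871 CPM in the other early S sums. All 4 trophectoderm genes of the rule summed to 404, 254, 321 and 219 CPM in early S cells, in the arm order used above. Other Epi-like cells had 312, 227, 291 and 260 CPM, lower in each arm but the 0 mM arm of run 2. The 13 primitive endoderm markers summed to 48.9, 44.4, 49.2 and 46.6 CPM in early S cells, in the arm order used above. Other Epi-like cells had 46.8, 37.2, 40.7 and 41.5 CPM, lower in each arm. The levels of 7 were too low to test, and of the other 6, 2 were higher, by at most 0.24 on the log2 scale. The 1 that was lower was GATA6, at 0 to 0.561 CPM in early S cells and named after its value was seen.

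Across genes, most replication genes were higher and most mitotic genes lower in the summed counts of early S cells. Of 13952 genes tested, 2102 were higher (15.1%) and 2331 lower (16.7%) at an edgeR adjusted p below 0.05, and 76 and 31 of these differed by over 1 on the log2 scale. These shares are the background for every list count below. Most differences were small, with a median size of 0.24, and 3543 of the 4433 genes had the same sign in all 4 arms. The calls fell to 1363 higher and 1408 lower without the 4 mM arm of run 2, which holds the most early S cells, and to 1019 and 1177 with DESeq2. With no arm in the model 438 and 216 were called. Among the genes named here, GATA2, KRT19, HIST1H3B, LEFTY1, SALL4, SAMHD1, SMC4, TDG and WDHD1 did not pass with DESeq2 (adjusted p = 0.078 for TDG to 0.44 for KRT19).

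**Figure D2:**
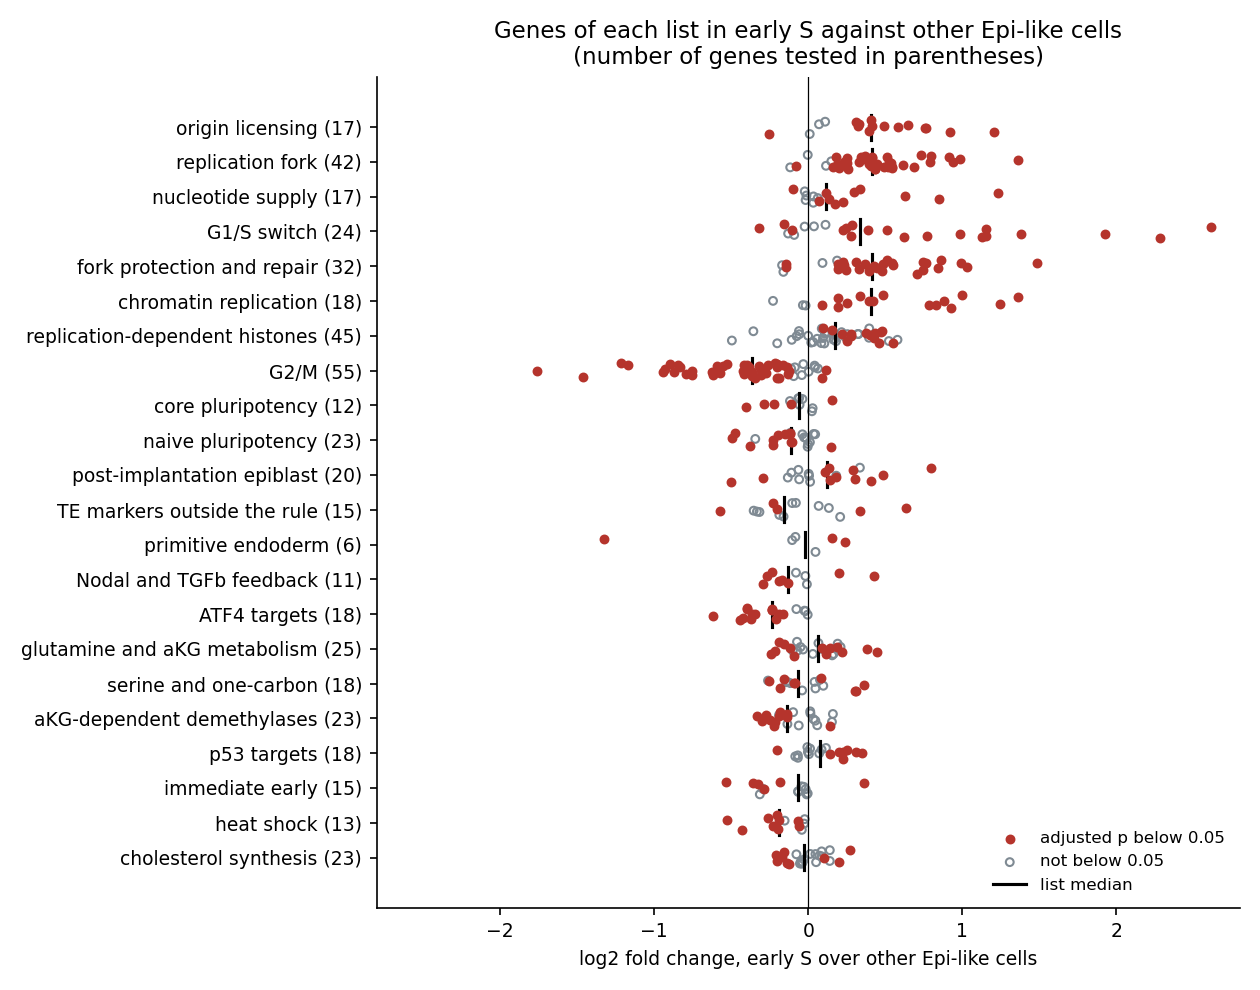
Log2 fold change of early S over other Epi-like cells (horizontal axis) for the tested genes of 22 lists (rows, genes tested in parentheses). Filled points had an adjusted p below 0.05, open points did not, and the black bar is the list median, at 0.41 for origin licensing and for the replication fork and at -0.36 for G2/M.

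Of 17 origin licensing genes, which load the helicase before replication, 13 were higher and 1 was lower (ORC2, -0.25, named after its value was seen), with a median of 0.41 against -0.01 over all tested genes. CDC6, the loader of MCM helicases, had 115, 102, 122 and 104 CPM in early S cells against 48.0, 43.0, 52.9 and 46.6 CPM (2.31-fold, log2 1.21 ± 0.034, edgeR adjusted p = 1.5e-43). Every early S sum of CDC6 was above every other sum. MCM4 (0.76) and GMNN, the inhibitor of re-licensing (0.76 ± 0.029), were higher as well. Between 93.3 and 98.4% of the early S cells of an arm had a summed licensing level above the median of the arm's other Epi-like cells. Of 15 licensing genes with a window, 8 held an E2F word (53.3%).

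Of 42 replication fork genes 37 were higher and 1 was lower (WDHD1, -0.08, named after its value was seen). CDC45, which joins MCM helicases to make them active, had 34.0, 35.3, 28.2 and 26.6 CPM in early S cells against 12.6, 11.4, 10.8 and 11.4 CPM (2.57-fold, log2 1.36 ± 0.062). Its early S sums were clear of its other sums. MCM10 (0.98), the polymerase delta subunit POLD3 (0.94) and the fork protection gene TIPIN (0.92) followed. Of 32 genes of fork protection and repair 26 were higher and 2 lower (TDG and PARP1, both -0.14, named after their values were seen). EXO1, an exonuclease of mismatch repair and fork processing, led the 12 genes named for size, with 36, 34.8, 29.9 and 30.3 CPM in early S cells against 12.2, 13.5, 10.8 and 10.8 CPM (log2 1.49 ± 0.060, edgeR adjusted p = 6.4e-34). The recombination genes XRCC2 and BRCA1 differed by 0.86 and 0.84.

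Of 17 nucleotide supply genes 10 were higher and 1 was lower (SAMHD1, a dNTP hydrolase, -0.10, named after its value was seen). RRM2, the regulated subunit of ribonucleotide reductase, had 125, 111, 115 and 102 CPM in early S cells against 51.5, 48.8, 47.1 and 46.4 CPM (2.35-fold, log2 1.23 ± 0.034). Its partner RRM1 differed by 0.63 and the thymidylate synthase TYMS by 0.33. The list median was 0.12, and 6 of the 17 genes did not pass.

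Of 24 genes of the G1/S switch 16 were higher. Cyclin E1 (CCNE1), the partner of CDK2 at S phase entry, had 99.3, 90.9, 102 and 104 CPM in early S cells against 47.8, 58.1, 50.9 and 52.1 CPM (log2 0.99 ± 0.036). The sums did not overlap, and the ratio was smallest in the 0 mM arm of run 1. FBXO5 (EMI1), which holds back the anaphase-promoting complex, was 2.60-fold higher, and CDC25A, the phosphatase that activates CDK2, 2.18-fold. SLBP, which binds histone mRNAs, had 187, 169, 171 and 154 CPM in early S cells against 74.1, 75.3, 76.9 and 75.3 CPM (2.23-fold). The atypical repressor E2F8, under the 20 CPM minimum and named after its value was seen, differed by 2.61 ± 0.11. The 3 that were lower were the CDK inhibitors CDKN1C (-0.32) and CDKN1B (-0.15) and cyclin D1 (CCND1, -0.11), also named after their values were seen. CDKN1C was higher in the 0 mM arm of run 1 (22.4 against 20.2 CPM) and CCND1 in its 4 mM arm (94.6 against 90.3 CPM), and CDKN1B and CCND1 did not pass with DESeq2 (adjusted p = 0.18 and 0.15).

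Of 18 genes that copy chromatin 15 were higher and 0 lower. ATAD2, a bromodomain ATPase, had 64.4, 43.8, 62.5 and 48.9 CPM in early S cells against 23.5, 18.9, 22.5 and 21.8 CPM (2.57-fold, log2 1.36 ± 0.048). UHRF1, which recruits the maintenance methyltransferase DNMT1 to new DNA, had 66.4, 60.6, 49.1 and 43.3 CPM against 22.4, 21.3, 21.2 and 21.6 CPM (2.37-fold), with the run 1 early S sums above those of run 2. CDCA7 (1.00), the chromatin assembly subunit CHAF1A (0.93) and the cohesin acetyltransferase ESCO2 (1.02, in no list) were also higher.

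Replication-dependent histone genes moved less. Of 45 tested, 14 were higher and 0 lower, with a median of 0.17. The largest named differences were HIST1H1A (0.55), HIST1H3B and HIST1H1B (0.28 each) and HIST1H1D (0.25), with HIST1H3B higher in 3 of 4 arms and the rest in 4. These mRNAs lack poly(A) tails, on which the 3′ capture relies. Between 77.0 and 85.2% of the early S cells of an arm had a summed histone level above the median of the arm's other Epi-like cells. At the top end the groups overlapped less. When the same fraction of cells was taken by summed histone level, 449 early S cells (21.5%) were also histone-high, against 20.0% of all Epi-like cells. A further comparison with the top fraction for G2/M genes gave 48 shared cells (2.30% of early S cells).

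Of 55 G2/M genes 44 were lower and 2 higher in early S cells (HMGB2, 0.11, and SMC4, 0.09, named after their values were seen). PLK1, a kinase of mitotic entry, had 9.10, 19.1, 17.0 and 19.2 CPM in early S cells against 43.9, 46.3, 58.9 and 58.5 CPM (3.39-fold lower, log2 -1.76 ± 0.058, edgeR adjusted p = 4.1e-39). HMMR, a spindle protein gene, was 2.75-fold lower, the kinase AURKA 2.32-fold and the separase inhibitor PTTG1 2.25-fold. CDC20, an activator of the anaphase-promoting complex, had 28.3, 24.7, 35.5 and 34.3 CPM against 66.0, 73.6, 79.1 and 73.8 CPM. All of these were lower in 4 of 4 arms. The summed G2/M level was above the median of the arm's other Epi-like cells in 41.3 and 52.5% of early S cells in run 1 (4 and 0 mM) and in 32.3 and 38.3% in run 2, so in the 0 mM arm of run 1 the typical early S cell was not below it. ARL6IP1, TPX2, TOP2A, KPNA2, G2E3, FAM83D and CKS2 completed the 12 genes at the lower end, at -0.97 to -0.87. Of 46 G2/M genes with a window, 32 held CHR (69.6%) and 3 an E2F word.

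**Figure D3:**
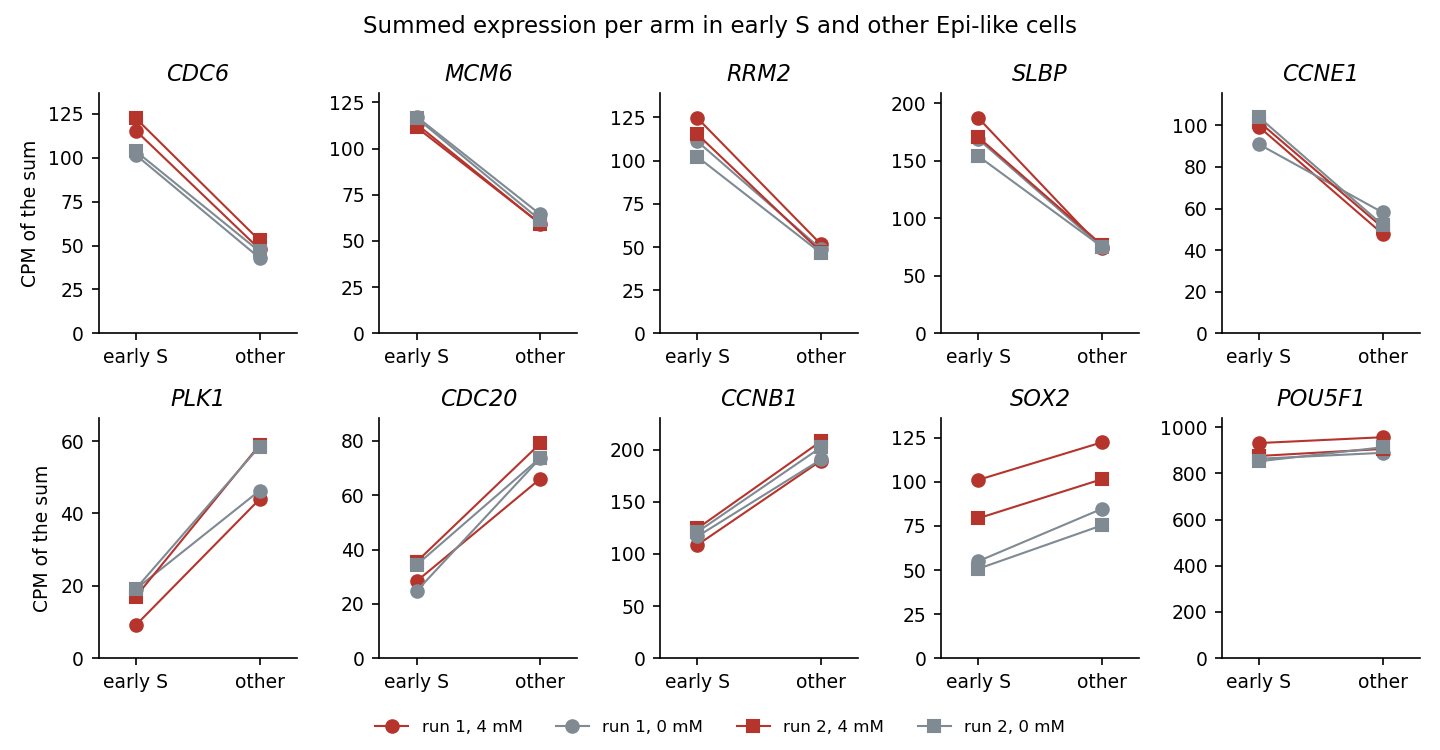
CPM of summed counts (vertical axes, from 0, TMM scaled) for 10 genes in early S and other Epi-like cells, 1 line per arm (circles run 1, squares run 2, red 4 mM, grey 0 mM). CDC6, MCM6, RRM2, SLBP and CCNE1 were higher and PLK1, CDC20, CCNB1 and SOX2 lower in early S cells in each arm, and POU5F1 had 852 to 931 CPM in early S cells and 889 to 956 CPM in the others.

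Pluripotency genes differed by little. POU5F1, a rule gene, is given as a description at -0.06 on the log2 scale, and NANOG had 200, 139, 162 and 132 CPM in early S cells against 211, 147, 167 and 139 CPM (-0.06 ± 0.027, edgeR adjusted p = 0.064). In both cell groups and both runs NANOG was higher at 4 mM than at 0 mM. SOX2 was lower in early S cells in 4 of 4 arms, with 101, 55.0, 79.3 and 50.7 CPM against 122, 84.7, 102 and 75.4 CPM (log2 -0.41 ± 0.037, edgeR adjusted p = 4.6e-15). Of 12 core pluripotency genes tested 4 were lower (SOX2, UTF1, PRDM14 and SALL4) and 1 higher (LIN28B, 0.15). Of 23 naive pluripotency genes 11 were lower and 1 higher (DPPA3, 0.15, named with SALL4 after their values were seen), with ALPG at -0.38 and KHDC3L at -0.20. Of 20 post-implantation epiblast genes 9 were higher and 2 lower, with CRABP1 at 0.30, THY1 at 0.29 and the de novo methyltransferase DNMT3B at 0.14. Of 11 Nodal and TGFβ feedback genes 6 were lower and 2 higher, but LEFTY1 (-0.23) and PMEPA1 (-0.27) had the opposite sign in the 0 mM arm of run 1.

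Targets of ATF4 and heat shock genes were mostly lower in early S cells. Of 18 targets of ATF4, the transcription factor of the amino acid response, 14 were lower and 0 higher, with a median of -0.23. NUPR1 had 28.9, 28.6, 21.6 and 26.9 CPM in early S cells against 38.4, 34.2, 33.0 and 33.0 CPM (-0.45 ± 0.054). ATF5 (-0.43), CHAC1 (-0.40) and TRIB3 (-0.40) were lower too, though TRIB3 had 38.7 against 37.8 CPM in the 0 mM arm of run 1. Of 13 heat shock genes 9 were lower and 0 higher, among them HSPA1A (-0.53), HSP90AB1 (-0.26) and HSP90AA1 (-0.20). Of 18 p53 targets 7 were higher, with ZMAT3 at 0.31 and MDM2 at 0.20, and 1 was lower (BAX, -0.20). In histone-high cells heat shock genes summed to 9258, 10223, 9919 and 10159 CPM, in the arm order used above. Other Epi-like cells had 9920, 10794, 10633 and 10735 CPM. Targets of p53 summed to 1095, 1145, 1159 and 1196 CPM in histone-high cells and 1052, 1105, 1072 and 1104 CPM in early S cells. Neither shift was therefore particular to early S cells. Of 15 immediate early genes 5 were lower and 1 higher.

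Genes of αKG metabolism were split. Of 25 tested, 7 were higher and 6 lower in early S cells. SLC38A1, an amino acid transporter gene, had 87.3, 88.7, 82.7 and 66.2 CPM in early S cells against 75.8, 62.6, 70.2 and 64.3 CPM (0.19 ± 0.037), higher in 4 of 4 arms. PSAT1 (-0.24) and IDH1 (-0.22), which produce αKG, were lower. In serine and folate metabolism 4 of 18 genes were higher, with MTR at 0.36 and MTHFD1 at 0.31, and 5 lower, with PHGDH at -0.25 and the mitochondrial SHMT2 at -0.18. Of 23 αKG-dependent demethylases and related dioxygenases 10 were lower and 1 was higher. The histone demethylase KDM5B had 136, 169, 162 and 173 CPM in early S cells against 184, 214, 201 and 213 CPM (-0.33 ± 0.028), and TET1, which oxidises methylcytosine, differed by -0.27 ± 0.024. Both were lower in 4 of 4 arms. Of 23 cholesterol synthesis genes 3 were higher and 6 lower, with a median of -0.03 against -0.01 over all tested genes. With 15.1% of all tested genes higher and 16.7% lower, mixed counts such as these do not set a list apart by themselves.

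The share of early S cells was higher at 4 than at 0 mM in both runs. Because the threshold was set over both doses of a run, these shares are a description with exact (Clopper-Pearson) 95% intervals, which hold for the sampling of cells only, and they were not tested. In run 1 early S cells were 21.2% of Epi-like cells at 4 mM (213 of 1006, 18.7 to 23.8%) and 16.9% at 0 mM (61 of 360, 13.2 to 21.2%). In run 2 they were 21.2% at 4 mM (1080 of 5101, 20.1 to 22.3%) and 18.5% at 0 mM (736 of 3978, 17.3 to 19.7%). The intervals overlapped in run 1 and stood apart in run 2. The difference was 4.23 percentage points in run 1 and 2.67 in run 2, a mean of 3.45. It was 2.04 without UNG in the score, 2.31 at the top 10% and 1.95 where a hashtag had to hold 90% of hashtag UMIs. Over all Epi-like cells the 9 genes summed to 585 CPM at 4 mM and 543 CPM at 0 mM in run 1, and to 566 and 528 CPM in run 2. UNG had 124 CPM at 4 mM and 100.4 CPM at 0 mM in run 1 and 116 and 105 CPM in run 2, and DTL had 48.6 and 36.1 CPM and 45.3 and 40.0 CPM. The histone-high share moved alongside, at 21.4% of run 1 cells at 4 mM and 16.4% at 0 mM, with 21.7% and 17.9% in run 2, while the G2/M-high share was 19.7% and 21.1% in run 1 and 20.0% and 20.1% in run 2.

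**Figure D4:**
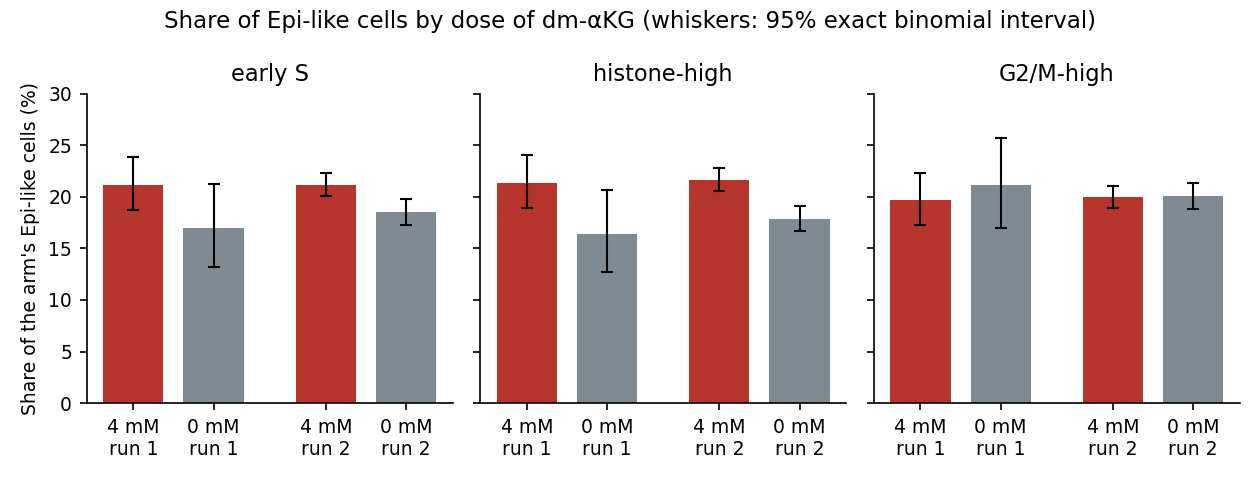
Share of the Epi-like cells of each arm (vertical axis, from 0) that were early S, histone-high or G2/M-high, with exact 95% binomial intervals as whiskers. Early S cells were 21.2% at 4 mM in both runs and 16.9 and 18.5% at 0 mM, and the G2/M-high share lay between 19.7 and 21.1% in all arms.

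Within early S cells, few genes were called for the dose of dm-αKG. The dose was not part of the rule, and 4 sums were compared with the run in the model, which leaves 1 residual degree of freedom. Of 13276 genes tested 188 rose (1.42%) and 102 fell (0.768%) at 4 mM, all 290 with the same sign in both runs. These shares are the background for the list counts by dose. In Epi-like cells of the same blastoids the study reported fewer genes for dose and similar levels of pluripotency factors. It also required a minimum size of change, so its count and this one are not like for like. By edgeR 1924 genes had an unadjusted p below 0.05, so a gene that was not called was not shown to be unchanged. The calls depended on the model, with 18 and 7 by DESeq2 and 9 and 1 with no run in the model. Leaving out an arm, which also takes the run out of the model, gave 14 and 5 without the 4 mM arm of run 1, 94 and 43 without its 0 mM arm, 174 and 112 without the 4 mM arm of run 2 and 9 and 16 without its 0 mM arm. CPM for the dose are scaled within the 4 early S sums and so differ slightly from those above. Of 17 licensing genes 0 passed in either direction, of 42 fork genes 1 rose (TICRR, 0.65, named after its value was seen) and of 17 nucleotide supply genes 0 passed. CDC6 had 118 CPM at 4 mM and 104 CPM at 0 mM in run 1 and 125 and 106 CPM in run 2 (0.23 ± 0.077, edgeR adjusted p = 0.13). PCNA differed by 0.06 ± 0.068, MCM6 by -0.06 ± 0.076, RRM2 by 0.17 ± 0.077 and CCNE1 by 0.02 ± 0.080, none past the threshold. Of the G1/S switch CCND2 (0.55) and CDC25A (0.33) rose and CCND1 fell (-0.37), and of chromatin replication ATAD2 (0.41) and HELLS (0.28) rose. Of 32 repair genes 0 passed, of 55 G2/M genes PSRC1 fell (-0.45), and of 44 histone genes HIST1H2AC rose (0.74, named after its value was seen), with a list median of 0.29 against 0.00 over all genes.

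The largest rise among genes at 20 CPM or more was in FOXD3-AS1, a noncoding RNA beside the pluripotency factor gene FOXD3, with 82.8 CPM at 4 mM and 29.3 CPM at 0 mM in run 1 and 54.1 and 26.4 CPM in run 2 (2.22-fold, log2 1.15 ± 0.11, edgeR adjusted p = 3.6e-09). FOXD3 itself, under that minimum and named after its value was seen, rose by 0.79 ± 0.17. THY1, a cell surface protein of primed pluripotent cells, had 46.4 and 20.7 CPM in run 1 and 37.8 and 17.6 CPM in run 2, at 4 and 0 mM in that order (2.17-fold). DDIT4, an inhibitor of mTORC1, had 164 and 69.5 CPM in run 1 and 122 and 60.9 CPM in run 2 (2.10-fold). In each of these genes both 4 mM sums were above both 0 mM sums. FBP1 (0.78), PHACTR2 (0.71), the Notch ligand JAG1 (0.71) and MT1M (0.68) followed.

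Of 12 core pluripotency genes 5 rose and 0 fell. SOX2 had 104 CPM at 4 mM and 56.3 CPM at 0 mM in run 1 and 81.3 and 51.8 CPM in run 2 (1.64-fold, log2 0.72 ± 0.089, edgeR adjusted p = 3.3e-06), LIN28A rose by 0.51, SALL4 by 0.46 and NANOG by 0.38. Of 11 Nodal and TGFβ feedback genes 5 rose and 0 fell. SMAD7, an inhibitor of the pathway, had 72.1 and 35.6 CPM in run 1 and 50.6 and 33.7 CPM in run 2 at 4 and 0 mM (1.62-fold), and PMEPA1 (0.63), LEFTY1 (0.61), the ligand gene NODAL (0.46) and SKIL (0.41, named after its value was seen) rose too. Naive genes went both ways. ALPG, a germ cell alkaline phosphatase, fell to 276 CPM at 4 mM against 532 CPM at 0 mM in run 1 and to 341 against 585 CPM in run 2 (1.80-fold lower, log2 -0.85 ± 0.065, edgeR adjusted p = 5.6e-11), and KHDC1L fell by 0.36. The study counts ALPG among its mural trophectoderm markers, which it found lower in TE-like cells after dm-αKG. KLF17 rose by 0.55 and ARGFX by 0.87 (named after its value was seen), while KLF4 (0.13) and TFCP2L1 (0.07) did not pass. Of 20 post-implantation genes 4 rose, among them THY1, MT1H and DNMT3B, and SFRP1 and TUBB3 fell (TUBB3 named after its value was seen). MT1H had 270 and 158 CPM in run 1 and 86.9 and 60.3 CPM in run 2 at 4 and 0 mM, so its level differed between runs. It was at -0.11 without the 4 mM arm of run 1, in a fit with no run in the model.

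Of 24 glutamine and αKG genes tested for dose 4 rose and 0 fell. SLC38A2, a glutamine transporter gene, had 97.4 CPM at 4 mM and 52.2 CPM at 0 mM in run 1 and 98.9 and 68.9 CPM in run 2 (0.62 ± 0.089, edgeR adjusted p = 4.5e-05). The transaminase genes BCAT1 (0.48) and PSAT1 (0.34) also rose. Of 18 ATF4 targets DDIT4, STC2 (0.39) and CHAC1 (0.82, named after its value was seen) rose. The chaperones DNAJA1 (0.39) and HSPA8 (0.35) rose and HSP90AA1 fell by 0.36. After ALPG the largest falls among genes at 20 CPM or more were in NEAT1, the RNA of paraspeckles (-0.71), PITPNA-AS1 (-0.68), the interferon-induced BST2 (-0.65), FXYD6 (-0.62), HPDL (-0.60), ELF3 (-0.58), HILPDA (-0.54), CCM2 (-0.53) and JUND (-0.53). TET1 differed by 0.12 ± 0.067 and did not pass. The 4 trophectoderm genes of the rule moved with the dose in early S cells. They summed to 404 CPM at 4 mM and 254 CPM at 0 mM in run 1 and to 321 and 219 CPM in run 2. Other Epi-like cells had 312 and 227 CPM in run 1 and 291 and 260 CPM in run 2, and TE-like cells 10674 to 13460 CPM. In early S cells the 20 trophectoderm markers outside the rule summed to 73.7 and 80.9 CPM in run 1 and to 78.2 and 87.1 CPM in run 2. GATA3 was under 1 CPM in all 4 early S sums, and the part of these transcripts in the dose results was not tested.

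No gene was shown to change with dose differently in early S than in other Epi-like cells. With the arm in the model, the interaction of dose and cell group was called for 0 of 14704 genes (0.0%) by edgeR, with 607 at an unadjusted p below 0.05, and for 0 by DESeq2, with 19. Without the 0 mM arm of run 2 it was called for 5 genes higher and 19 lower, and without the 0 mM arm of run 1 for 0 and 3. Among 5128 genes at 20 CPM or more the interaction had a median size of 0.05 on the log2 scale with a median SE of 0.087, and 95% lay below 0.18. FOXD3-AS1 differed by 1.5 in run 1 and 1.03 in run 2 in early S cells and by 1.24 and 0.68 in the others, an interaction of 0.32 ± 0.10 (edgeR adjusted p = 0.999969). SOX2 differed by 0.89 and 0.65 in early S cells and by 0.53 and 0.43 in the others, an interaction of 0.27 ± 0.078. ALPG differed by -0.93 and -0.77 in early S cells and by -1.04 and -0.60 in the others.

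**Figure D5:**
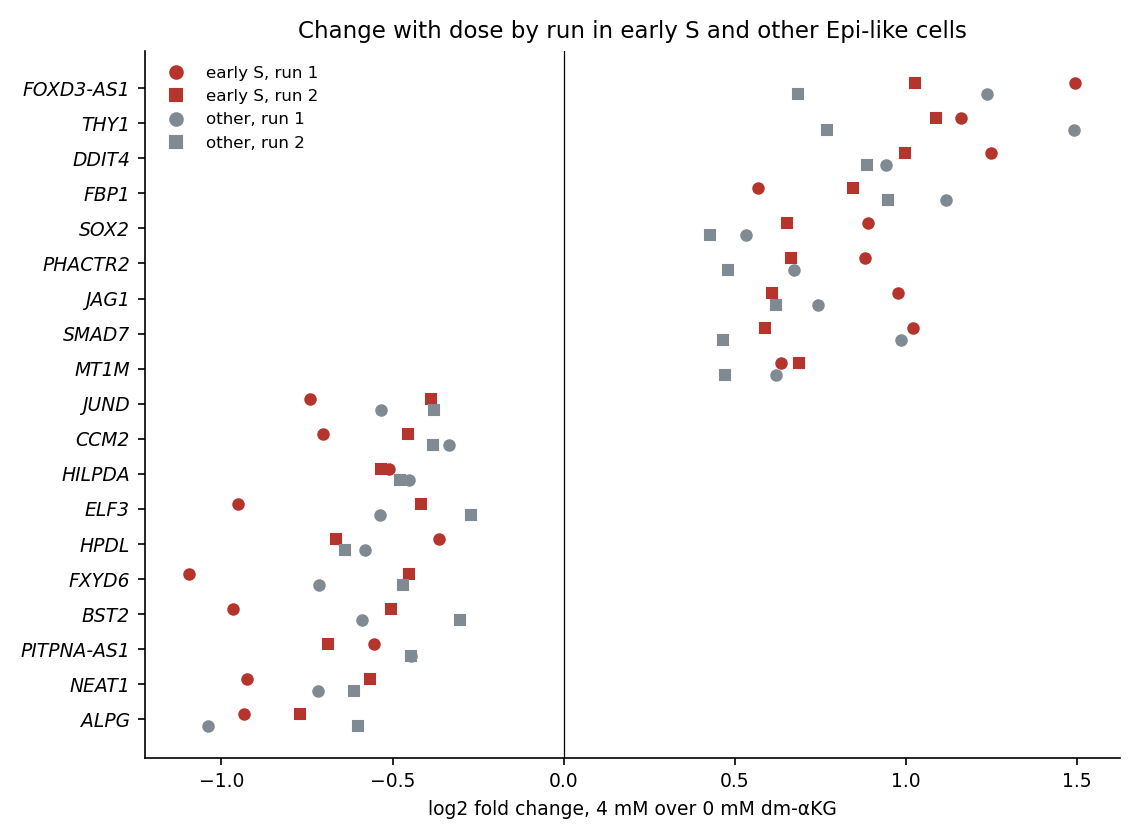
Log2 fold change of 4 mM over 0 mM dm-αKG (horizontal axis) for 9 of the 10 genes that rose most and the 10 that fell most in early S cells. Red marks are early S cells, grey marks other Epi-like cells, circles run 1 and squares run 2. The marks of both cell groups lie on the same side of 0 for each gene.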

How the data were processed

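H9 blastoids were captured with 10x 3′ v3.1 chemistry. The authors made the deposited UMI counts with Cell Ranger 6.1.2 (bcl2fastq 2.20.0.422) on the GRCh38 reference of 10x Genomics, and hashtag counts stand in the same deposited matrices. The study used Seurat 4.3.0 and regressed the cell cycle out before clustering, which was not done here. The culture and dose of each hashtag come from the deposited hashtag tables, which hold names (a label and no count or other measured score). Cells are not replicates, so counts were summed per arm and cell group and tested with edgeR 4.0.16 in R 4.3.3 (quasi-likelihood F test, TMM, filterByExpr, Benjamini-Hochberg at 0.05). P-values rest on arms as replicates, 2 per dose, with a spread pooled largely across genes. The dose fit had 1 residual degree of freedom per gene against a prior of 34.1, and the early S fit 3 against 67.7. With the arm in the model, the early S fit measures how the difference between cell groups varied over arms. The SE values come from the same fits and are not the spread of 1 gene alone. The 18 genes of the rule were left out of the tests. CPM ratios within an arm add 0.5 CPM to both sides. The fits were tested on simulated data. Members and gene lists were chosen with earlier results of these data known, and list medians stand beside the median of all tested genes. Named genes were the 12 with the largest difference in each direction (10 for dose) among those past the threshold, with a mean level of 20 CPM or more and 1 direction in every arm or run, plus up to 4 per list, defining list members that did not pass, and the rule and marker genes. Alternatives were DESeq2 1.42.0, its size factors, no filter, other scores, thresholds and cell limits, no block, and each arm left out. Aggregates at 40 h were not used. Figures used matplotlib 3.10.9. Some genes that the rule names are not reported here.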

Additional observations from a re-analysis of the deposited data

Results flagged for a closer look

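In 6 of 114 genes named for early S against other Epi-like cells, 1 of the 4 arms stood apart from the rest by Dixon's 95% limit, which chance passes in about 1 in 20 sets of 4. The 0 mM arm of run 1, with 61 early S cells, was the one apart in 5 of them. Its log2 difference was 0.64 for CCNE1 against 0.99 to 1.05 in the other arms, and 0.62 for MCM4 against 0.76 to 0.77. It was -0.84 for HMMR against -1.56 to -1.44, and -1.10 for G2E3 against -0.88 to -0.86. For SC5D, a sterol desaturase gene, it was -0.41 against 0.23 to 0.35. In PTTG1 the 4 mM arm of run 1 stood apart, at -1.34 against -1.14 to -1.11.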

How the results depend on the processing

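Of 114 genes named for early S against other Epi-like cells 57 kept direction and call under every alternative run and 0 turned, and of 68 named for dose 13 did and 1 turned, MT1H, at -0.11 to 1.53 with each arm left out and lowest without the 4 mM arm of run 1. Genes called higher and lower in early S cells numbered 1019 and 1177 with DESeq2, 438 and 216 with no replicate block (no arm), and 1363 to 2155 and 1408 to 2246 with each arm left out. For dose, 18 genes rose and 7 fell with DESeq2, 523 and 354 with members chosen after thinning each cell to 5000 UMIs (where ties made 3155 members), 284 and 180 with the 7 marker genes alone, 77 and 47 at the top 10%, 9 and 1 with no replicate block (no run), and 9 to 174 and 5 to 112 with each arm left out and no run in the model. At a mitochondrial limit of 10% 178 fell. The interaction called 0 to 5 genes higher and 0 to 19 lower with each arm left out. The difference in share was 2.31 points at the top 10%, 2.04 without UNG and 1.95 at a hashtag purity of 90%, and positive in both runs under all alternatives. With DESeq2 20 named dose genes lost their call, and genes that it gave no adjusted p, THY1 among them, were not counted there. No cause was tested. A leave-one-out dose fit leaves a lone arm, assumed to vary like the others.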

Other observations

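TE-like cells, which the early S group leaves out, passed the early S threshold in 3 of 56 (5.36%) at 4 mM and 1 of 18 (5.56%) at 0 mM in run 1, and in 20 of 175 (11.4%) at 4 mM and 18 of 208 (8.65%) at 0 mM in run 2. Their exact 95% intervals, 7.12 to 17.1% at 4 mM and 5.21 to 13.3% at 0 mM in run 2, overlapped.

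The keratin genes KRT18 and KRT8 helped to set the Epi-like group and so are given as values with no test. KRT18 had 307 CPM at 4 mM and 202 CPM at 0 mM in early S cells of run 1, and 237 and 157 CPM in run 2. In other Epi-like cells KRT18 had 252 and 182 CPM in run 1 and 227 and 202 CPM in run 2. KRT8 had 81.1 and 49.9 CPM in early S cells of run 1, and 75.3 and 53.2 CPM in run 2. Among genes below the 20 CPM minimum, all named after their values were seen, PDGFRA rose by 1.11 ± 0.30 with dose in early S cells and FABP7 fell by 0.69, at 5.84 and 13.2 CPM in run 1 and 11.9 and 18 CPM in run 2 at 4 and 0 mM.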
